A study of Mus musculus with 12 samples.

Results

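The nuclear genes of the mitochondrial respiratory chain and ATP synthase were followed in the livers of mice on a diet that causes fatty liver disease with inflammation and scarring. They were taken as all array probes whose accession maps to a mouse symbol beginning with Ndufa, Ndufb, Ndufc, Ndufs, Ndufv, Uqcr, Cox4 to Cox8 or Atp5, or to Sdha, Sdhb, Sdhc or Sdhd. The names bring in 125 of the 55681 gene probes, for 93 genes. Of these, 91 were above background in at least 1 group and were tested, among 13900 genes in all. Cox7b2 and Cox8c were not above background on both arrays of any group. By complex, the 93 genes are 36 subunits and 8 assembly factors of complex I, 4 genes of complex II, 8 of complex III, 20 of complex IV and 17 of complex V. Ndufa4 and Ndufa4l2 were counted with complex IV, where their proteins are found.

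The livers came from male C57BL/6NJcl mice given either CE-2, a laboratory rodent feed (control), or CDAHFD, a choline-deficient, amino acid-defined feed with 60 kcal% fat and 0.1% methionine. Feeding began at 6 weeks of age, and livers were taken after 1, 2 and 6 weeks, when the mice were 7, 8 and 12 weeks old. There were 2 one-colour arrays in each of the 6 groups, so n = 2 throughout. The feeds differ in many components, so the effects of choline, methionine and fat cannot be told apart. Whether replicates are separate mice is not stated in the labels, so the p-values reflect the spread between arrays alone, and that spread may be technical.

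The respiratory chain passes electrons from NADH (complex I) and succinate (complex II) through complex III to oxygen at complex IV, and pumps protons across the inner mitochondrial membrane. Complex V, the ATP synthase, lets the protons flow back and makes ATP. Some core subunits are encoded by mitochondrial DNA and are not covered here. All others are nuclear genes whose proteins are imported and built into the complexes in fixed ratios. Hepatocytes are rich in mitochondria, and oxidise much of the fatty acid that reaches the liver.

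Promoters were read in windows from 250 bases before to 50 after the start site (RefSeq, build GRCm38.p6), for 75 of the 91 genes. Letters of 4 binding motifs linked to respiratory genes were searched on both strands: the NRF1 palindrome, CCGGAAG for ETS factors such as GABP, the YY1 motif and TCAAGGTCA for ERR factors. NRF1 letters were in 7 of 75 genes (9.33%), against 2.42% of 3681 other genes of a dimmer band of signal, defined below. The share was 2.06% of the 11054 tested genes with a window and 0.971% of all 32851 windows. The last set counts single windows, also of genes not tested here, and is not a like comparison. In the same order, ETS letters were in 19 (25.3%), against 22.5, 18.2 and 8.86%. YY1 letters were in 5 (6.67%), against 2.83, 2.50 and 0.986%. ERR letters were in 2 (2.67%), against 0.244, 0.353 and 0.423%. A match of letters is a description, not a site.

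One promoter of each complex is shown, chosen after the search because its window holds such letters and its gene fell with the diet. The 250 bases before the start site are written 5′ to 3′ on the gene's strand. Capitals mark the NRF1 letters in Ndufa11 and Atp5k, and the ETS letters or their reverse complement in Sdhd, Uqcr11 and Cox6b1.
Ndufa11 (chr17:56717512-56717761, plus strand): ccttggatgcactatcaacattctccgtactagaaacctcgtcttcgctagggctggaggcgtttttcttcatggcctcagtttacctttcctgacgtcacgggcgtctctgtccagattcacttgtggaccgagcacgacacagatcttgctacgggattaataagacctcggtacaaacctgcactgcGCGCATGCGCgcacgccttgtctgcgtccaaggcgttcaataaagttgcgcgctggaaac
Sdhd (chr9:50603850-50604099, minus strand): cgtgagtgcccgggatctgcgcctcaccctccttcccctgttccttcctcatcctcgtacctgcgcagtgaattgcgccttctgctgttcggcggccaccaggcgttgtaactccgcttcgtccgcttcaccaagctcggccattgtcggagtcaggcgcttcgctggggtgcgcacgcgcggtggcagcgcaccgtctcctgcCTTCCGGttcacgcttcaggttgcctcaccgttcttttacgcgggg
Uqcr11 (chr10:80406822-80407071, minus strand): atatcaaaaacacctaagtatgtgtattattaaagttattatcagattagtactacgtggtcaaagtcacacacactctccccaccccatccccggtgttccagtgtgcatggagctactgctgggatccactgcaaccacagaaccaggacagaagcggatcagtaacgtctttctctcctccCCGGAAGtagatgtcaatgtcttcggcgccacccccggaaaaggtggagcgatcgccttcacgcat
Cox6b1 (chr7:30626115-30626364, minus strand): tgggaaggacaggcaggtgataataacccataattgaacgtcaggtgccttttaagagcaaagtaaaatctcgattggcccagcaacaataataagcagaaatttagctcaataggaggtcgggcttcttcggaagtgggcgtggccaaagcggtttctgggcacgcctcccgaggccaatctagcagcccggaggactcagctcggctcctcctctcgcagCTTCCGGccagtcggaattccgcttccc
Atp5k (chr5:108434400-108434649, minus strand): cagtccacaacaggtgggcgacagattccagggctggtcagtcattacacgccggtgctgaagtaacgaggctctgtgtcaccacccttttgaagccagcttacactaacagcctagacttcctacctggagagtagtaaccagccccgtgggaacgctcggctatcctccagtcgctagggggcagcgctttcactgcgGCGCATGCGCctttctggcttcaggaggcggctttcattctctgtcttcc
The motif begins 60 bases before the start site in Ndufa11, 46 in Sdhd, 66 in Uqcr11, 28 in Cox6b1 and 50 in Atp5k. The average log2 differences of these genes between the diets were -0.50, -0.42, -0.78, -1.11 and -0.82, in that order. Genes with and without the letters had medians of -0.55 and -0.61 for NRF1, -0.64 and -0.56 for ETS, -0.48 and -0.62 for YY1 and -0.40 and -0.61 for ERR.

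The share of probes well above background was 40.4 to 44.4% on control and 45.4 to 49.7% on CDAHFD arrays. Control replicate 1 at 1 week had a dim corner, with 384 otherwise bright spots at least 8-fold under their value on any other array, against 0 to 3 such spots elsewhere. Ndufa1, Ndufb2, Ndufv2 and Cox6a2 were read by probes in that corner, and values without those spots stand beside the results of Ndufa1, Ndufb2 and Ndufv2. The 10 hepatocyte markers, all detected, had a summed signal of 266 to 458 on control arrays and 147 to 256 on CDAHFD arrays, in units of each array's 75th percentile. The 10 stellate cell and fibroblast markers summed to 8.90 to 11.5 in control and 20.9 to 38.7 in CDAHFD livers, and the 9 macrophage and monocyte markers with a probe to 5.11 to 9.83 and 19.6 to 40.9. In bulk tissue, fewer cells of a type and less RNA per cell cannot be told apart, and the part of cell composition in the results was not tested.

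The median difference of the respiratory genes was below 0 at every week, and so was that of each of the 5 complexes, although at 6 weeks 4 of the 18 complex IV genes fell and 3 rose. The median difference of the 91 genes (CDAHFD minus control, log2) was -0.81 at 1 week, or 1.76-fold lower, -0.58 at 2 weeks, -0.40 at 6 weeks and -0.61 in the average of the weeks. Differences are given relative to the median difference of all 13900 genes, itself 0.13 at 1 week, 0.05 at 2 weeks, 0.03 at 6 weeks and 0.08 averaged. A gene rose or fell where limma's Benjamini-Hochberg adjusted p over all genes was under 0.05. On that rule 76 of 91 fell and 1 rose at 1 week, against 15.0% of all genes lower and 25.9% higher. At 2 weeks 63 fell and 3 rose, against 14.9% and 22.9%. At 6 weeks 41 fell and 3 rose, against 16.2% and 24.5%. In the average 80 fell and 4 rose, against 25.7% and 35.6%. The share of all genes lower at all 3 weeks was not computed, so a count of that kind shows nothing particular to the 91. A total of 39 genes fell at all 3 weeks, among them Ndufv1, Ndufb8 and Atp5c1. That number was 15 without control replicate 1 of 6 weeks and 20 without CDAHFD replicate 2 of 6 weeks, of which 15 and 18 were among the 39. It was 24 to 40 without each other array.

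Scaling and single arrays moved these values. Under quantile normalization the medians were -0.35, -0.28 and -0.15 at 1, 2 and 6 weeks, with 45, 36 and 29 genes lower. Of all genes, 14.6, 15.7 and 18.7% were then lower. In the average the median was -0.28 under quantile normalization, -0.37 with normexp background correction and -0.38 with no filter on dim genes. Median centring called 37 genes lower at 2 weeks and 21 at 6 weeks, against 7.56 and 9.38% of all genes. The 75th percentile over all probes called 67 lower at 6 weeks. There 30.5% of all genes were lower, against 16.2% in the main fit. At 2 weeks, 38 genes were lower without control replicate 1 and 34 without CDAHFD replicate 2. At 6 weeks, 15 were lower without control replicate 1 and 21 without CDAHFD replicate 2. Of the 80 genes that fell in the average, 76 did so without each of the 12 arrays in turn.

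Bright genes as a whole were lower in CDAHFD livers, and these genes are bright: 50 of the 91 lay in the brightest twentieth of mean signal and 77 in the brightest 5 of 20 such bins. The 645 other genes of that twentieth had medians of -0.62, -0.51 and -0.35 at 1, 2 and 6 weeks. Each gene was therefore also set against the median of all other genes in its own twentieth. Less that background, the median of the 91 genes was -0.36 at 1 week, -0.20 at 2 weeks, -0.09 at 6 weeks and -0.22 in the average. At 1 week 80 of 91 lay below their background, at 2 weeks 70 and at 6 weeks 61. Of the 645 bright genes, 60.6, 54.4 and 39.5% were called lower at 1, 2 and 6 weeks, and 72.6% in the average. The shares among the 91 genes were 83.5, 69.2, 45.1 and 87.9%. The 4515 other genes between the 10th and 90th percentile of the members' signal form a dimmer band, with a median of 0.57 against 3.25. Of these, 23.7, 23.6 and 25.1% were called lower at 1, 2 and 6 weeks, and 38.0% in the average.

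For 55 of the 91 genes, all 6 CDAHFD arrays lay below all 6 control arrays. The pattern was found in 11.1% of all genes and 19.0% of the 4515 genes of the dimmer band above. The 55 genes are 22 of 36 complex I subunits, 5 of 8 assembly factors and 3 of 4 genes of complex II. They also include 5 of 8 of complex III, 8 of 18 of complex IV and 12 of 17 of complex V. The reverse order held for Cox6a2 alone among the 91, and for 21.0% of all genes.

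**Figure D1:**
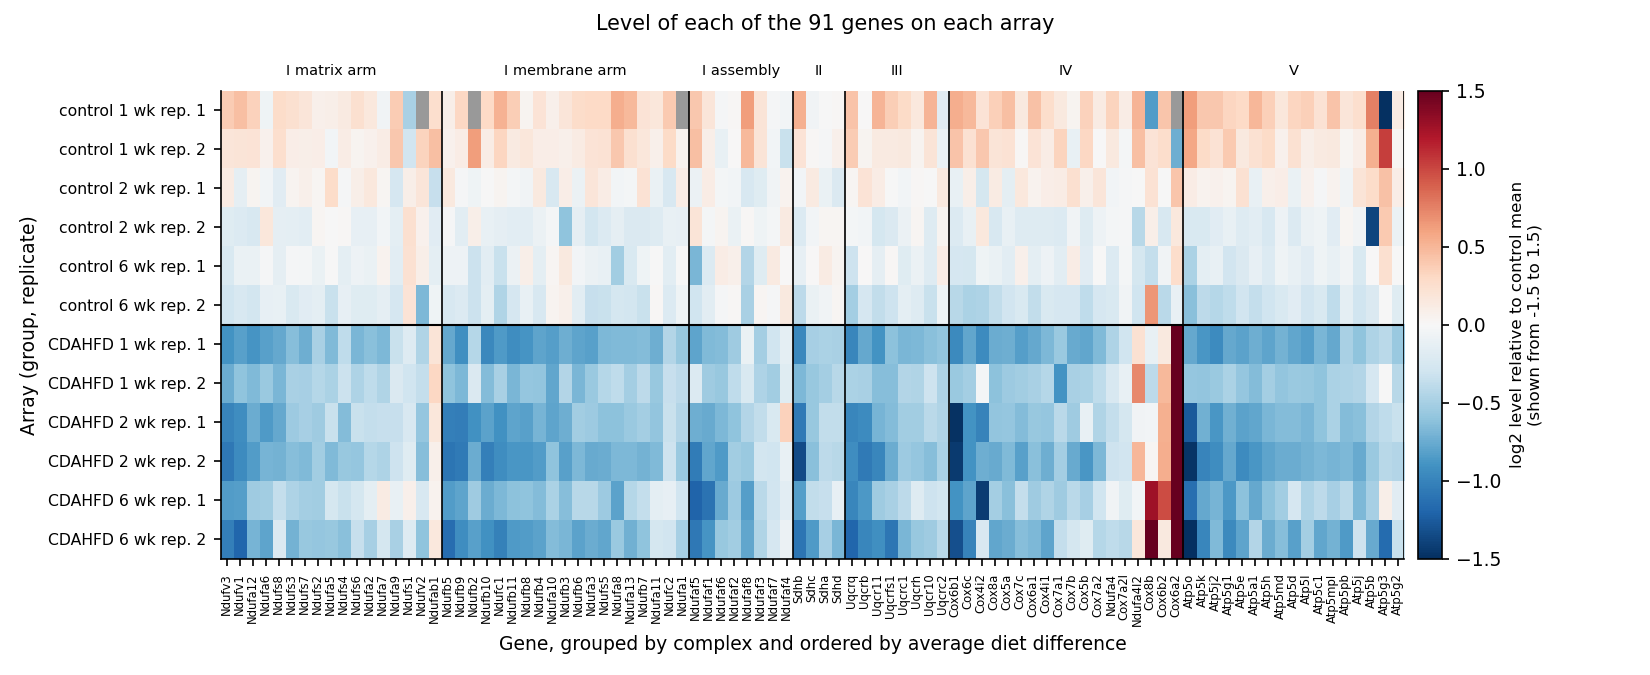
Level of each of the 91 genes, by complex, on each of the 12 arrays, as log2 relative to the gene's mean over control arrays and to the same in all genes; grey cells are spots in the dim corner of control replicate 1 at 1 week. Most genes are low on the 6 CDAHFD arrays, while Cox6a2 is high on all 6.

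Complex I takes electrons from NADH. Its matrix arm holds the flavin and the iron-sulphur clusters, and of its 17 genes 14 fell at 1 week, 10 at 2 weeks and 8 at 6 weeks, with medians of -0.71, -0.53 and -0.25. Ndufv1, the flavin-bearing subunit that accepts the electrons, read 4.37 and 4.07 in control and 3.19 and 3.36 in CDAHFD livers at 1 week (normalized log2 signal). At 2 weeks it read 3.76 and 3.71 against 3.04 and 3.03, and at 6 weeks 3.79 and 3.68 against 3.11 and 2.80. Every CDAHFD array was below every control array. Its average difference was -0.89 ± 0.08 (SE of the fit; limma adjusted p = 9.30e-06).

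Ndufv3, an accessory subunit of the same NADH-binding module, had the largest average fall of the arm as read by each gene's brightest probe, -0.93 ± 0.07 (limma adjusted p = 3.59e-06). It read 4.68 and 4.44 in control and 3.50 and 3.60 in CDAHFD livers at 1 week, 4.41 and 4.12 against 3.38 and 3.29 at 2 weeks and 4.05 and 4.01 against 3.48 and 3.34 at 6 weeks. Ndufs1, which carries several iron-sulphur clusters, was not called at any week. At 1 week it read 1.91 and 2.06 in control and 2.28 and 2.14 in CDAHFD livers, at 2 weeks 2.45 and 2.62 against 2.21 and 2.27, and at 6 weeks 2.60 and 2.59 against 2.49 and 2.26. Its 1-week control arrays were the lowest of the 12, below both CDAHFD arrays of that week, and at 2 and 6 weeks the CDAHFD arrays lay below the controls. Its average difference was -0.17 ± 0.07 (limma adjusted p = 0.234). Tested against the median of all genes, Ndufs1 was lower in the average (limma adjusted p = 0.0431) and at 2 weeks (0.0356). It was not called in that test at 1 week (0.526) or 6 weeks (0.107).

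Ndufv2, an iron-sulphur subunit of the NADH-binding module, was read in the dim corner, at -0.69 on control replicate 1 at 1 week where the other control arrays gave 1.80 to 2.76. As read, its average difference was 0.04 ± 0.58 (limma adjusted p = 0.868). Without that spot it was -0.52 ± 0.13 (limma adjusted p = 0.0120), with -0.75, -0.71 and -0.11 at 1, 2 and 6 weeks. Ndufab1, the mitochondrial acyl carrier protein, which also serves lipoic acid synthesis, rose at 2 weeks. It read -1.47 and -1.28 in control and -0.87 and -0.96 in CDAHFD livers, a difference of 0.41 ± 0.12 (limma adjusted p = 0.0111). That call was lost without control replicate 1 of the week (limma adjusted p = 0.0783) or CDAHFD replicate 1 (0.0759). At 1 week its arrays overlapped (-0.85 and -0.70 against -0.82 and -0.75), and at 6 weeks they did not (-1.27 and -1.16 against -1.04 and -0.88). Its average was 0.16 ± 0.07 (limma adjusted p = 0.0113), and the limma adjusted p was 0.0628 when tested against the median of all genes.

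The membrane arm pumps protons, and its nuclear subunits surround a mitochondrially encoded core. Of 19 genes 18 fell at 1 week, 16 at 2 weeks and 11 at 6 weeks, with medians of -0.94, -0.59 and -0.44. Ndufb5, an accessory subunit, read 3.004 and 2.94 in control and 2.24 and 2.36 in CDAHFD livers at 1 week, 3.05 and 2.89 against 1.95 and 1.88 at 2 weeks and 2.81 and 2.68 against 2.09 and 1.83 at 6 weeks. No CDAHFD array overlapped a control array, and the difference was widest at 2 weeks, -1.10 ± 0.12 (limma adjusted p = 7.31e-05). Its average of -0.91 ± 0.07 was the largest of the arm as read by each gene's brightest probe, followed by Ndufb9 at -0.90 ± 0.07. A second, dimmer Ndufb5 probe gave 0.04 at 2 weeks and -0.14 in the average, and was not called (limma adjusted p = 0.735 and 0.551). Ndufb8, whose protein is often used to follow complex I assembly, gave -0.88, -0.72 and -0.69 at 1, 2 and 6 weeks.

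Ndufa1 and Ndufb2 were read in the dim corner. Ndufa1, a small subunit needed for assembly, read -7.79 on the affected array and 3.78 to 3.999 on the other control arrays, against 3.41 to 3.64 on the CDAHFD arrays. The difference as read at 1 week was 5.30 ± 3.32 (limma adjusted p = 0.238). Without the spot it was -0.54, -0.48 and -0.34 at 1, 2 and 6 weeks, and the average was -0.46 ± 0.07 (limma adjusted p = 0.00119). Ndufb2 read 3.25 on the affected array and 2.37 on its replicate. Its average difference was -0.86 ± 0.13 (limma adjusted p = 0.000562) as read and -0.70 ± 0.08 without the spot (limma adjusted p = 5.53e-05).

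The 8 assembly factors build complex I and are not part of the finished enzyme. Only 1 of them lay in the brightest 5 of 20 bins of signal. Their medians were -0.65, -0.42 and -0.45, and of the 8, 6 fell at 1 week, 4 at 2 weeks and 3 at 6 weeks. Ndufaf1, an early assembly factor, read 0.31 and 0.17 in control and -0.44 and -0.35 in CDAHFD livers at 1 week, 0.23 and 0.10 against -0.56 and -0.59 at 2 weeks and -0.09 and -0.03 against -0.95 and -0.68 at 6 weeks. Its differences were -0.77, -0.79 and -0.80, and the average was -0.79 ± 0.07 (limma adjusted p = 6.58e-06). Ndufaf5, a hydroxylase that modifies a complex I subunit, gave -0.84 ± 0.13 in the average, Ndufaf6 -0.68 ± 0.07 and the chaperone Ndufaf2 -0.52 ± 0.06, all 3 called. Ndufaf4 was not called at any week, with an average of -0.06 ± 0.09 (limma adjusted p = 0.876).

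Complex II, succinate dehydrogenase, is shared with the citric acid cycle and is built wholly from nuclear genes. All 4 genes fell in the average; 3 fell at 1 week, 2 at 2 weeks and 3 at 6 weeks. Its median differences were -0.55, -0.48 and -0.49. Sdhb, the iron-sulphur subunit, differed most. It read 4.75 and 4.37 in control and 3.35 and 3.58 in CDAHFD livers at 1 week, 4.16 and 4.01 against 3.22 and 2.93 at 2 weeks and 4.07 and 3.82 against 3.41 and 3.19 at 6 weeks. The arrays of the diets did not overlap, and the average difference was -0.995 ± 0.10, or 1.99-fold lower (limma adjusted p = 1.48e-05). A second Sdhb probe lay in the dim corner, and with the mean of both probes the difference at 1 week turned to 1.52 (limma adjusted p = 0.416).

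The flavoprotein Sdha differed by -0.43 ± 0.06 (limma adjusted p = 0.000406) in the average. The membrane anchors gave -0.58 ± 0.08 (limma adjusted p = 0.000283) for Sdhc and -0.42 ± 0.09 (limma adjusted p = 0.00670) for Sdhd. Sdhd read 3.32 to 3.58 on control arrays and 2.93 to 3.44 on CDAHFD arrays, so the diets overlapped across weeks, and no single week was called. Tested against the median of all genes, Sdhd was lower at 1 week (limma adjusted p = 0.0185) and 6 weeks (0.0490) but not at 2 weeks (0.172).

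Complex III hands electrons from ubiquinol to cytochrome c. Of its 8 genes 8 fell at 1 week, 7 at 2 weeks and 5 at 6 weeks, with medians of -0.84, -0.56 and -0.41, and all 8 fell in the average. The small subunit Uqcrq read 5.13 and 5.04 in control and 3.82 and 4.27 in CDAHFD livers at 1 week, 4.71 and 4.67 against 3.78 and 3.83 at 2 weeks and 4.37 and 4.19 against 3.75 and 3.58 at 6 weeks. Within each week the diets were apart, and its average difference was -0.92 ± 0.08 (limma adjusted p = 9.92e-06). Uqcrb, another small subunit, had its widest difference at 2 weeks, 4.33 and 4.10 against 3.25 and 3.14, or -1.07 ± 0.13 (limma adjusted p = 0.000153).

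The Rieske iron-sulphur protein Uqcrfs1 gave -0.71 ± 0.10 in the average, Uqcr11 -0.78 ± 0.11 and the core protein Uqcrc1 -0.55 ± 0.07, all called. Uqcrc1 read 1.74 and 1.56 in control and 0.86 and 1.05 in CDAHFD livers at 1 week and 1.26 and 1.31 against 1.09 and 0.83 at 6 weeks. Its diets did not overlap, but the call at 6 weeks (limma adjusted p = 0.0487) was lost without each of 11 of the 12 arrays in turn, all but CDAHFD replicate 1 of 6 weeks, with limma adjusted p from 0.0509 to 0.2499.

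Complex IV, cytochrome c oxidase, reduces oxygen to water. Of the 12 genes other than the tissue isoforms 11 fell at 1 week, 9 at 2 weeks and 4 at 6 weeks, with medians of -0.89, -0.60 and -0.36, and all 12 fell in the average. Cox6b1, on the side that faces cytochrome c, had the widest difference. It read 1.497 and 1.34 in control and 0.09 and 0.44 in CDAHFD livers at 1 week, 0.83 and 0.75 against -0.46 and -0.42 at 2 weeks and 0.69 and 0.54 against 0.08 and -0.29 at 6 weeks. No array of one diet overlapped the other, and the average was -1.11 ± 0.09, or 2.16-fold lower (limma adjusted p = 2.72e-06).

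Cox6c, a small membrane subunit, gave -0.81 ± 0.08 in the average and fell at all 3 weeks. Cox4i1, the ubiquitous form of regulatory subunit IV, read 5.67 and 5.48 in control and 4.83 and 5.02 in CDAHFD livers at 1 week, 5.49 and 5.22 against 4.89 and 4.74 at 2 weeks and 5.31 and 5.18 against 4.99 and 4.68 at 6 weeks. Its differences were -0.78, -0.59 and -0.45. The call at 6 weeks was lost without each of 7 of the 12 arrays in turn, with limma adjusted p from 0.0550 to 0.239. Cox5a, a matrix-side subunit, gave -1.01, -0.48 and -0.45. Under quantile normalization the 2-week values of Cox4i1 and Cox5a turned to 0.00 and 0.05 and were not called, so their direction at 2 weeks depends on the scaling. Cox7a2l, which helps join complexes III and IV, gave -0.26 ± 0.06 (limma adjusted p = 0.0265) in the average and was called at no single week. Other Cox7a2l probes gave -0.08 and -0.10 in the average and were not called (limma adjusted p = 0.911 and 0.656). Under quantile normalization the brightest probe turned to 0.15 and was called higher (limma adjusted p = 0.0159). Its call was also lost without each of 7 of the 12 arrays in turn, with limma adjusted p from 0.0502 to 0.0750.

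Of 6 tissue isoforms measured, 1 fell and 1 rose at 1 week, 2 rose at 2 weeks and 3 at 6 weeks. Of all genes, 25.9, 22.9 and 24.5% rose. Dim genes as a whole were higher in CDAHFD livers, with medians of 0.60, 0.78 and 1.02 in the dimmest twentieth. Less the background of like signal, the isoform medians were -0.44, -0.04 and 0.36, and -0.12 in the average. Those of the other 12 genes were -0.27, -0.08 and -0.01, and -0.10 in the average. Cox6a2, the heart and skeletal muscle form of subunit VIa, was higher at every week. It read -7.81 and -7.51 in control and -3.28 and -3.56 in CDAHFD livers at 1 week, -6.33 and -6.57 against -3.50 and -3.40 at 2 weeks and -6.48 and -6.84 against -3.55 and -3.23 at 6 weeks. It was well above background on all 6 CDAHFD arrays and on 0 of 6 control arrays. The change is therefore a lower bound: at least 9.19-fold higher at 1 week, at least 8.00-fold at 2 weeks and at least 9.35-fold at 6 weeks (limma adjusted p = 3.13e-06, 7.09e-06 and 3.25e-06). It entered the fit only through the CDAHFD groups, where it is high, so these p-values are no support for the difference. The bound sets the CDAHFD mean against the dimmest detected probe on each control array. The ubiquitous partner Cox6a1 fell in the average, -0.61 ± 0.08, though it turned to 0.10 under quantile normalization.

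Of the 5 skeletal muscle markers, Ckm, Myh4, Tnnt3 and Mylpf were below background on all 12 arrays. The fifth, Acta1, was above background on 0 of 6 control and 2 of 6 CDAHFD arrays. The 5 markers summed to 0.0186 to 0.0293 on control and 0.0144 to 0.0232 on CDAHFD arrays. In the RefSeq order of protein-coding genes Cox6a2 follows Itgax and Itgad, and its annotation overlaps that of Itgad. The Itgad probe was below background on all 12 arrays. Itgax, a leukocyte integrin, read -7.19 to -5.45 on control arrays and -1.29 to 0.74 on CDAHFD arrays. Signal of overlapping genes cannot be told apart by name, the probe sequence was not used here, and which transcript the Cox6a2 probe detects was not tested.

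Cox6b2, the testis form of subunit VIb, rose at 2 and 6 weeks. It read -4.14 and -4.33 in control and -4.31 and -4.02 in CDAHFD livers at 1 week, -4.58 and -4.80 against -3.95 and -3.95 at 2 weeks and -4.63 and -4.95 against -3.56 and -4.34 at 6 weeks. The 1-week arrays overlapped and the later ones did not. The differences were -0.06, 0.68 and 0.81 (limma adjusted p = 0.846, 0.0398 and 0.0210). The call at 6 weeks was lost without control replicate 2 (0.64, limma adjusted p = 0.131) and without CDAHFD replicate 1 (0.38, limma adjusted p = 0.155). The call at 2 weeks was lost without either 1-week CDAHFD array and without any array of 2 weeks, with limma adjusted p from 0.0504 to 0.152.

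Cox8b, the heart and muscle form of subunit VIII, was above background on 4 of 12 arrays. At 6 weeks it read -7.50 and -6.46 in control and -5.84 and -5.12 in CDAHFD livers, with 1 of 2 control arrays above background. The fitted difference was 1.47 ± 0.45 (limma adjusted p = 0.0215), but Cox8b entered the fit only through the 6-week CDAHFD arrays, so this p is no support for the difference. The call was lost without control replicate 1 (0.95, limma adjusted p = 0.172) and without CDAHFD replicate 2 (1.12, limma adjusted p = 0.136). At 2 weeks neither diet was above background.

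Cox7a1, the heart and muscle form of subunit VIIa, read -1.30 and -1.16 in control and -1.91 and -2.30 in CDAHFD livers at 1 week, a fall of -1.01 ± 0.16 (limma adjusted p = 0.00167), and was not called at 2 or 6 weeks. Cox4i2, the lung form of subunit IV, gave -0.73 ± 0.24 (limma adjusted p = 0.0353) in the average. It ran from -5.89 to -5.08 in control and -6.84 to -5.42 in CDAHFD livers, which overlapped. That call was lost without each of 8 of the 12 arrays (both control and CDAHFD replicate 1 of 1 week, control replicate 2 and both CDAHFD of 2 weeks, and replicate 1 of each diet at 6 weeks), with limma adjusted p from 0.0515 to 0.104.

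Ndufa4l2, a relative of Ndufa4 that is induced at low oxygen in many cells, gave 0.25 ± 0.13 (limma adjusted p = 0.0482) in the average, and no single week was called. Its arrays were apart at 2 weeks (-3.80 and -4.20 against -3.77 and -3.22) and at 6 weeks (-4.07 and -4.08 against -3.80 and -3.54). The call was lost without each of 8 of the 12 arrays (both control and CDAHFD replicate 2 of 1 week, replicate 2 of each diet at 2 weeks, and both control and CDAHFD replicate 2 of 6 weeks), with limma adjusted p from 0.0676 to 0.141. Tested against the median of all genes, its adjusted p was 0.116.

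**Figure D2:**
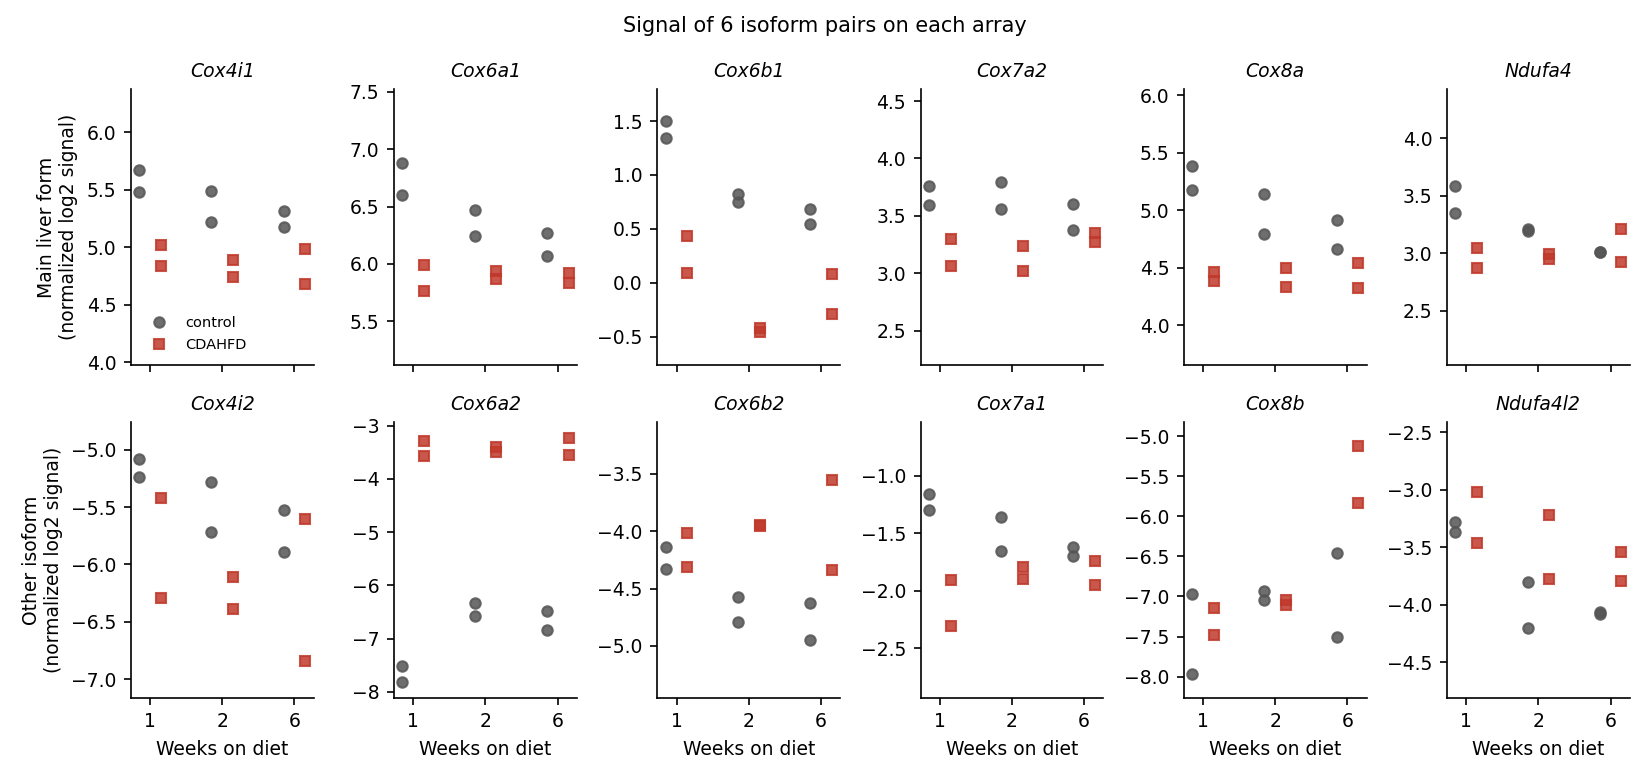
Normalized log2 signal on each array (2 per group) of 6 main liver forms (top) and their isoforms or paralogs (bottom), by diet and weeks on diet, each panel with its own axis. Cox6a2 is higher on all 6 CDAHFD arrays than on any control array, whereas Cox6a1 and Cox6b1 are lower; levels are not comparable between panels.

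Complex V makes ATP from ADP. Of its 17 genes 15 fell at 1 week, 15 at 2 weeks and 7 at 6 weeks, with medians of -0.96, -0.67 and -0.42. Atp5o, part of the peripheral stalk that holds the catalytic head, had the largest average fall of the 91 genes as read by each gene's brightest probe. Single dimmer probes of Atp5c1 (-1.65), Cox7c (-1.28) and Ndufv3 (-1.22) gave larger falls. It read 1.99 and 1.90 in control and 0.69 and 0.83 in CDAHFD livers at 1 week, 1.45 and 1.14 against 0.17 and -0.04 at 2 weeks and 0.87 and 0.74 against 0.25 and -0.24 at 6 weeks. Within each week the diets were apart, while the control arrays of 6 weeks overlapped the CDAHFD arrays of 1 week. The average difference was -1.15 ± 0.10, or 2.22-fold lower (limma adjusted p = 4.89e-06).

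In the catalytic head, Atp5a1, the alpha subunit, read 4.11 and 3.79 in control and 2.97 and 3.001 in CDAHFD livers at 1 week, 3.48 and 3.45 against 2.89 and 2.80 at 2 weeks and 3.46 and 3.26 against 2.87 and 3.24 at 6 weeks. It differed by -1.09, -0.67 and -0.34, the last not called (limma adjusted p = 0.119). Atp5b, the catalytic beta subunit, was not called at any week. Control replicate 2 at 2 weeks read 3.43 where the other control arrays read 4.597 to 5.56, and CDAHFD arrays read 4.12 to 4.600. At 1 week it read 5.56 and 5.30 against 4.44 and 4.600, a difference of -1.04 ± 0.43 (limma adjusted p = 0.124). Without control replicate 2 of 2 weeks Atp5b was called lower at every week, with differences of -1.04, -0.76 and -0.51 at 1, 2 and 6 weeks (limma adjusted p = 0.000901, 0.0117 and 0.0217). The average was then -0.78 (limma adjusted p = 0.000104).

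In the membrane part, Atp5k and Atp5j2 gave -0.82 ± 0.09 and -0.78 ± 0.09 in the average, both called. The ring subunit c is encoded by 3 genes with the same mature protein. Atp5g1 gave -0.76 ± 0.06 and Atp5g2 -0.38 ± 0.07, both called, but Atp5g2 turned to 0.08 under quantile normalization. Atp5g3 read 2.04 on control replicate 1 at 1 week and 5.15 on its replicate, and was not called, -0.38 ± 0.54 (limma adjusted p = 0.654). Without that array its average was -0.89 and was called lower (limma adjusted p = 0.00510), while no single week was called.

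**Figure D3:**
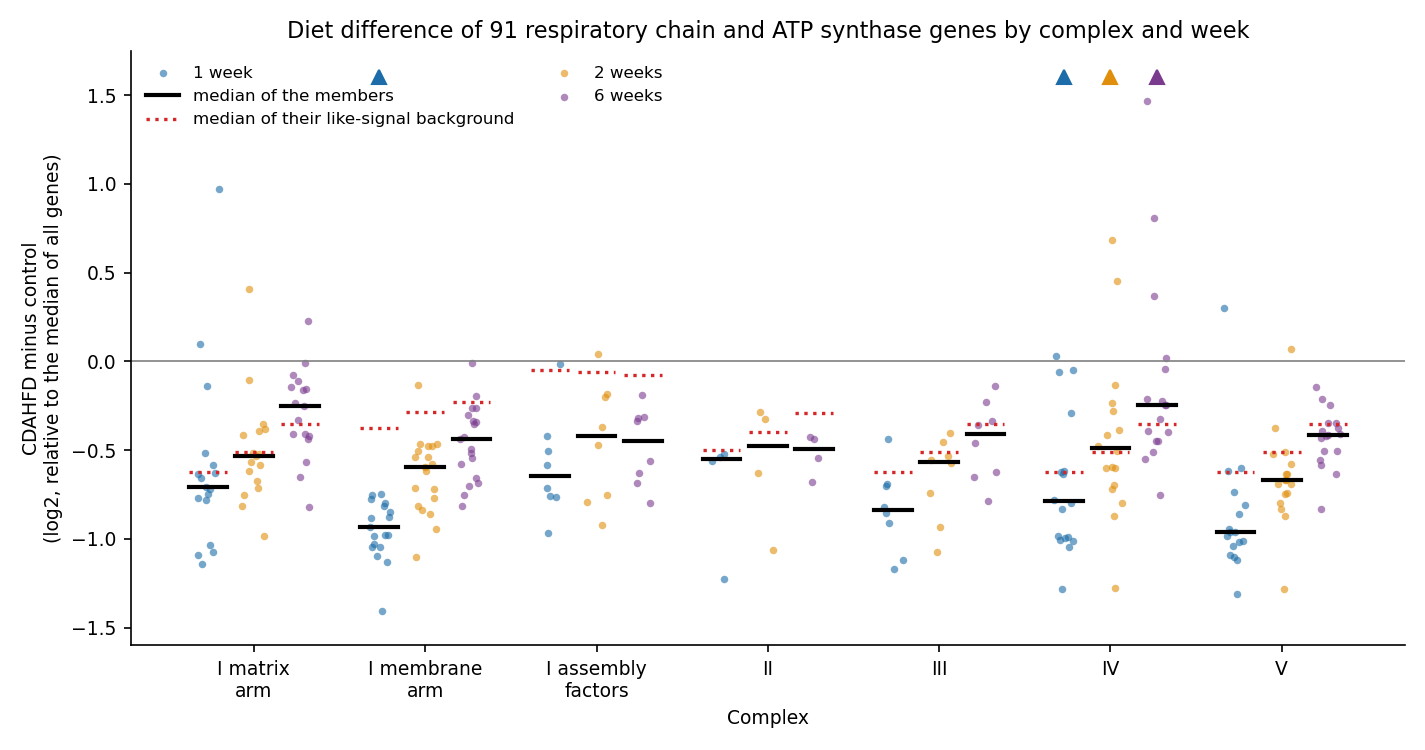
Diet difference of each gene (points; CDAHFD minus control, log2, relative to the median of all genes) by complex, at 1, 2 and 6 weeks, with the median of the genes and of their background of like signal. Most points lie below 0 in every complex; triangles mark values beyond the axis, which are Cox6a2 and, at 1 week, Ndufa1 as read in the dim corner.

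Less their background of like signal, the medians at 1 week were -0.16 for the matrix arm and -0.42 for the membrane arm of complex I, -0.62 for its assembly factors, -0.17 for complex II, -0.37 for complex III, -0.34 for complex IV and -0.36 for complex V. At 2 weeks they were -0.10, -0.22, -0.46, -0.19, -0.25, -0.08 and -0.18, in the same order, and at 6 weeks -0.03, -0.16, -0.47, -0.27, -0.15, 0.07 and -0.07. The pooled SD between replicates of a complex's median level was 0.05 to 0.15. At 6 weeks the matrix arm, complex III, complex IV and complex V were within their SD of 0. The membrane arm (SD 0.12), complex II (SD 0.13) and the assembly factors (SD 0.05) were further below. With 10 bins of signal in place of 20, complex IV at 2 weeks was -0.21 and the membrane arm at 2 weeks -0.33. The matrix arm at 6 weeks turned to 0.02. Complex III at 6 weeks was then -0.18, beyond its SD of 0.15. Complex II was -0.06, -0.09 and -0.19 at 1, 2 and 6 weeks. No test was made between complexes.

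The diet difference was lower at 1 week than at 6 weeks in 79 of 91 genes, and control levels were lower at the later weeks. The median level of the 91 genes, relative to the control mean, was 0.26 and 0.15 on the control arrays of 1 week, 0.04 and -0.12 on those of 2 weeks and -0.10 and -0.23 on those of 6 weeks. On CDAHFD arrays it was -0.68 and -0.48, -0.59 and -0.68, and -0.49 and -0.67. The 1-week controls lay above all later controls, while CDAHFD levels overlapped at all weeks. The 1-week controls exceeded the later controls by a median of 0.31, in 78 of 91 genes. In the dimmer band of 4515 genes the median was 0.02, with 2357 genes higher at 1 week. No value was computed for other genes as bright as the members, so whether the shift is particular to the 91 was not tested. Set against the controls of 2 and 6 weeks, the 1-week CDAHFD arrays gave a median of -0.46, with 62 genes lower and 3 higher. Of all 13900 genes, 1704 (12.3%) were lower and 3192 higher in that comparison.

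**Figure D4:**
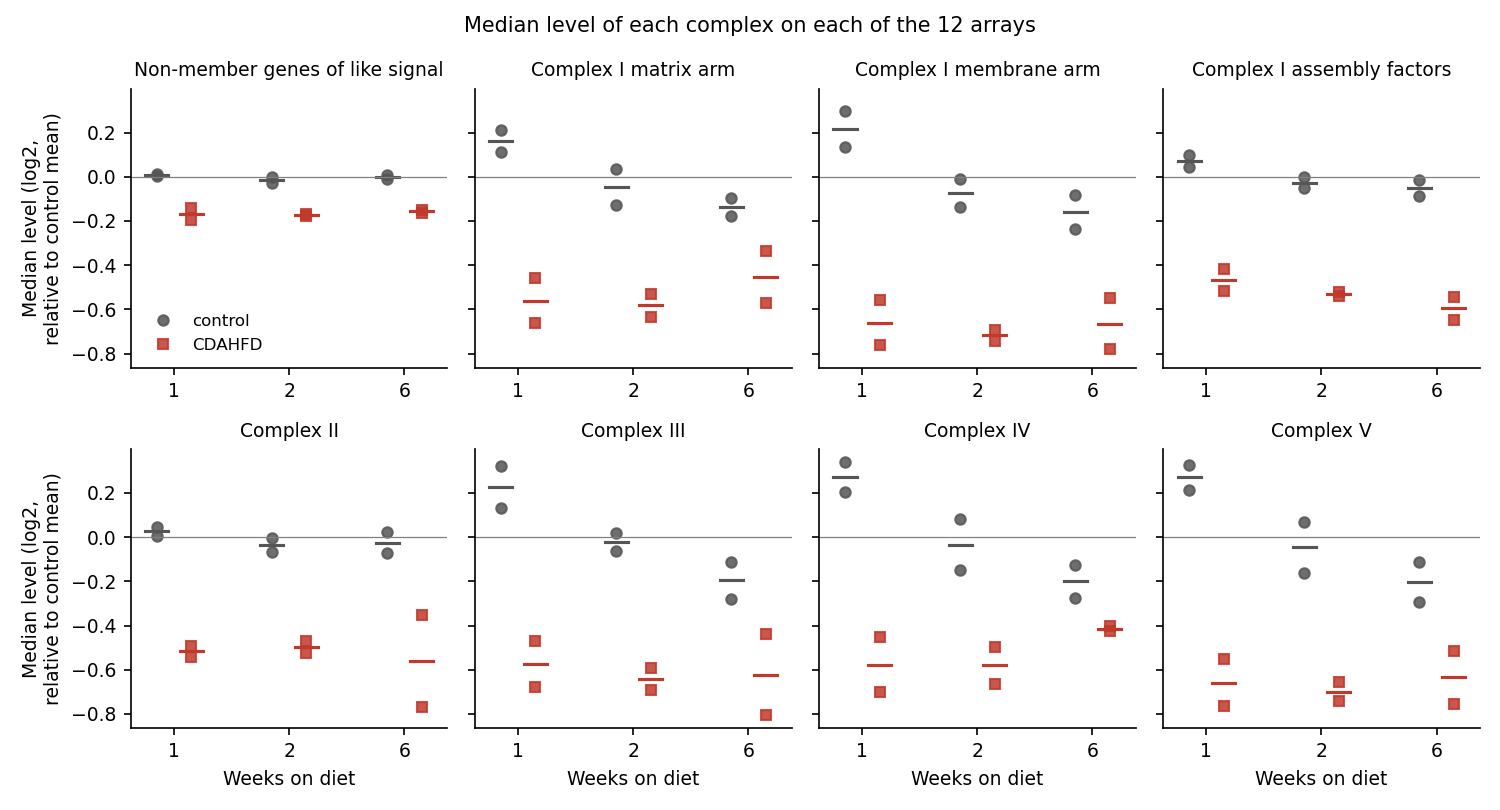
Median level of the genes of each complex on each array (log2, relative to the gene's control mean and to all genes), by diet and weeks on diet. Control levels are highest at 1 week in complexes III, IV and V and in both arms of complex I. They are nearly level in complex II. The panel of genes of like signal shows the dimmer band of 4515 genes, which stays between -0.20 and 0.01.

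Across control arrays, 19 of 91 genes differed between weeks, against 11.5% of all genes (limma F test). Age and time on the feed cannot be told apart here, and the 6-week arrays were on a slide of their own, so week 6 and slide cannot be told apart either. The count was 1 without control replicate 1 at 1 week, 9 without control replicate 1 and 9 without control replicate 2 at 6 weeks, and 4 under median centring.

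The diet difference itself changed over weeks in 1 of 91 genes, Ndufs8, against 2.4% of all genes (limma F test of the diet by week term). Ndufs8, an iron-sulphur subunit of the matrix arm, read 1.12 and 1.06 in control and 0.17 and 0.20 in CDAHFD livers at 1 week, 0.67 and 0.71 against 0.14 and 0.20 at 2 weeks and 0.69 and 0.74 against 0.52 and 0.70 at 6 weeks. The diets were far apart at 1 week and overlapped at 6 weeks. The differences were -1.04, -0.57 and -0.14 (SE 0.10 each; limma adjusted p of the change = 0.0361). The call was lost without each of 7 of the 12 arrays (control replicate 1 and both CDAHFD of 1 week, both CDAHFD of 2 weeks and both control of 6 weeks), with limma adjusted p from 0.0791 to 0.132. Next in order were Ndufc2 (limma adjusted p = 0.0558), Cox6a2 (0.102), Ndufa11 (0.124), Ndufa9 (0.126) and Atp5l (0.147). Ndufc2, a membrane-arm subunit, gave -0.77, -0.13 and -0.01, and Ndufa9, a matrix-arm subunit near the quinone site, -0.71, -0.11 and -0.08. Without adjustment, 20 of 91 had p under 0.05 in that F test. No share of all genes at this threshold is given here, so the count shows nothing particular to the 91.

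Several probes were tested for 24 of the genes. In the average all probes of 18 genes were called lower, in 5 genes some were, and in 0 genes were probes called in opposite directions. The probes of Atp5l, a membrane subunit of complex V, ran from -0.24 to -0.74 in the average, and those of Uqcrb from -0.16 to -0.87. Of the genes with these name stems, RefSeq lists 96 as protein-coding and 19 as pseudogenes. Signal of near-identical copies cannot be split here, so single-gene values are uncertain for genes with such copies.

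Related genes are given as counts called in the average, where 25.7% of all genes were called lower. The share was 38.0% in the dimmer band of 4515 genes and 72.6% among the 645 other genes of the brightest twentieth. Of 36 other assembly and regulatory factors, 18 fell and 2 rose in the average, with a median of -0.27 (-0.20 less the background of like signal). Bcs1l, which inserts the Rieske protein into complex III, gave -0.70, and Cox20, a complex IV chaperone, -0.64. Atpif1, the inhibitor of ATP hydrolysis by complex V, rose by 0.91 (limma adjusted p = 1.59e-07). Of 19 electron carrier and coenzyme Q genes, 10 fell and 5 rose, with a median of -0.29. Cyc1, the haem subunit of complex III that the name rule leaves out, gave -0.80. Coq8a, a kinase-like protein of coenzyme Q synthesis, gave -2.76, and Coq10b, a coenzyme Q binding protein, rose by 0.93.

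Of 21 genes of the citric acid cycle and pyruvate dehydrogenase, 8 fell and 3 rose in the average, with a median of -0.24 (-0.04 less the background). Fumarase (Fh1) gave -1.02, and the kinases Pdk1 and Pdk2, which switch off pyruvate dehydrogenase, -0.93 and -0.56. Of 16 regulators of mitochondrial gene expression, 6 fell and 3 rose, with a median of -0.23. Ppargc1a, a coactivator known for raising respiratory genes, rose by 1.09 in the average and differed by 0.76, 0.65 and 1.87 at 1, 2 and 6 weeks. The mitochondrial RNA polymerase Polrmt gave -0.42, and the mitochondrial transcription factor Mterf1a rose by 0.51.

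Of 21 genes of the outer membrane, import and chaperones, 12 fell and 0 rose in the average, with a median of -0.25 (-0.08 less the background). Opa1, the fusion protein of the inner membrane, gave -0.83, the prohibitin Phb -0.66 and the cristae protein Chchd3 -0.42. Of 12 uncoupling and superoxide genes, 5 rose and 5 fell, with a median of 0.01. The uncoupling proteins Ucp2 and Ucp3 rose by 2.14 and 2.34, and the adenine nucleotide carrier Slc25a4, the form of heart and muscle, by 1.01. Each gene named from these lists passed the limma threshold in the average.

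The 10 hepatocyte markers had medians of -0.81, -0.58 and -0.38 at 1, 2 and 6 weeks, with -0.62 averaged, close to those of the respiratory genes, and all 10 fell in the average. Less the background of like signal their average was -0.11, beside -0.22 for the 91 genes. Of 9 macrophage and monocyte markers 7 rose, with a median of 2.76, and 10 of 10 stellate cell and fibroblast markers, with 1.67. Of 5 erythroid markers tested 5 fell, with a median of -1.36. Of 8 endothelial markers 3 fell and 1 rose, and of 6 cholangiocyte markers 3 rose. Of 6 T and NK cell markers 3 rose and 2 fell. Among all genes, 35.6% rose and 25.7% fell in the average. All 4 B cell markers tested rose, with the defining genes Cd79a and Pax5 below background on all arrays. Of 2 markers of heart and brown fat tested, 1 rose and 1 fell.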

How the data were processed

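Mouse liver RNA was hybridised to 12 one-colour (Cy3) Agilent arrays, from 150 ng of RNA per array. The authors deposited scanner intensities from Agilent Feature Extraction (11.5.1.1 per the file headers, 10.7 per the submitters' processing notes), background-subtracted per array, with no normalization across arrays. Each array's log2 processed signal was set relative to its 75th percentile over the 20137 probes that passed the scanner's background test on every array. Accessions were named through RefSeq (GRCm38.p6), and 28664 of 55681 probes gained a symbol. Genes entered the fit where both arrays of some group passed that test, and the brightest probe stood for the gene. One limma model (3.58.1, R 4.3.3; trended, robust eBayes) held 6 group means over 12 arrays with 6 residual degrees of freedom. It tested each difference from 0, while differences are printed relative to the median of all genes. The fit was tested on simulated data.

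The members, lists and markers were chosen with earlier results of these data known, and the related lists and cell marker lists support no test. Genes named are anchors of each complex, the 4 largest average calls per complex, every riser, the tissue isoforms, the 6 genes that changed most over weeks, genes read in the dim corner, and 3 genes per related list. Acta1, Atp5c1, Atp5g2, Atp5g3, Cox6a1, Cox7a2l, Cox7c and Ndufaf4 were added after their values were seen. Alternatives were median centring, the 75th percentile over all probes, quantile normalization, normexp (offset 50, on median signals, since no mean signal was used here), other filters, the mean of probes, array weights, a replicate block, fits by week or slide, stricter thresholds and leaving out each array. The test against the median of all genes, and the member median without the 4 genes of the dim corner, were chosen after seeing the data. The number of arrays limits the precision. Probe sequences were not used here.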

Additional observations from a re-analysis of the deposited data

Results flagged for a closer look

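Ndufs8 was the 1 gene of the 91 whose diet difference differed between weeks by the test of the difference itself (limma F test over 3 weeks, adjusted p = 0.0361). Its differences were -1.04, -0.57 and -0.14 at 1, 2 and 6 weeks, and the call was lost without each of 7 of the 12 arrays.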

How the results depend on the processing

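The direction of the median held under every setting run, and the cause of the shifts below was not tested. Quantile normalization gave 45, 36 and 29 genes lower at 1, 2 and 6 weeks, against 14.6, 15.7 and 18.7% of all genes. It called 3 higher at 1 week, 1 at 6 weeks and 2 in the average. The medians were -0.35, -0.28, -0.15 and, in the average, -0.28. Normexp gave medians of -0.44, -0.37, -0.27 and -0.37, with 1 gene higher at 6 weeks and 2 in the average. With no filter the medians were -0.55, -0.37, -0.22 and -0.38. Median centring called 37 and 21 genes lower at 2 and 6 weeks, against 7.56 and 9.38% of all genes. The 75th percentile over all probes called 67 lower at 6 weeks, against 30.5% of all genes. It called 1 higher at 2 weeks and 1 in the average. With only genes above background on all arrays, limma called 0 higher at 1 week and 1 at 6 weeks, since Cox6a2 and Cox8b are not among them. Fits of only the 6-week arrays, which are also the arrays of that slide, gave 22 lower and 1 higher. Of all genes, 11.3% were then lower. At an adjusted p under 0.01, 41 and 20 genes were lower at 2 and 6 weeks, against 8.40 and 9.18% of all genes. At that threshold 1, 1 and 2 were higher at 2 weeks, 6 weeks and in the average. With a fold of at least 1.5, 41, 15 and 49 were lower at 2 weeks, 6 weeks and in the average. Of all genes, 10.8, 11.2 and 12.9% were lower on that rule. It left 1 member higher in the average. Tested against the median of all genes, 2 were higher in the average. With the controls of 2 and 6 weeks the 1-week median was -0.46, with 3 genes higher, against 3192 of all 13900 genes. Without subtracting the median of all genes the 1-week median was -0.68.

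By limma, a change over weeks was called in 0 genes under median centring, with no filter and without the eBayes trend. It was also called in 0 at an adjusted p under 0.01. Weeks differed within control in 4 genes under median centring, 10 under quantile normalization and 2 at an adjusted p under 0.01. Complex IV at 2 weeks, less genes of like signal, was -0.21 with 10 bins of signal. Among the named members, called values that turned were Sdhb at 1 week with the mean of probes (1.52), and under quantile normalization Cox4i1 (0.0026) and Cox5a (0.0531) at 2 weeks and Ndufc2 (0.0427) in the average. Of the other members, Atp5g2, Cox6a1, Cox7a2l, Ndufa4, Ndufa7 and Ndufs6 turned in the average, Atp5g2 and Uqcrc2 at 1 week and Atp5g2, Cox6a1 and Ndufa13 at 2 weeks under quantile normalization. Cox7a2l also turned in the average under normexp (0.0077), and Ndufaf8 at 1 week with the later controls (0.14).

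Leaving out each array gave 54 to 77, 34 to 68 and 15 to 42 genes lower at 1, 2 and 6 weeks and 76 to 80 in the average. Genes called higher ran from 1 to 4, 2 to 3, 2 to 3 and 3 to 6. Medians ran from -0.91 to -0.70, -0.68 to -0.49, -0.49 to -0.31 and -0.64 to -0.56. A change over weeks was called in 0 to 5 genes, and weeks within control in 1 to 26. For the 44 named members, 5718 of 6096 values kept direction and call, 293 lost the call, 81 gained one and 4 reversed.

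Scaling shifted the average median of all genes from 0.08 to 0.19 (median centring), -0.17 (75th percentile over all probes), -0.14 (normexp) and 0.02 (quantile). The share of called genes that were higher moved from 58.0% to 70.8, 36.3, 35.3 and 52.6%. With the replicate number as a block, 76, 64, 42 and 80 genes were lower and 1, 3, 3 and 3 higher. The numbers do not pair the samples: deviations of same-numbered arrays correlated at -0.14 to 0.22 over 15 pairs of groups. Genes near background, such as Cox8b, are limited by their signal.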
